A study of Mus musculus with 6 samples.

Results

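Histone and DNA modifying enzymes and the chromodomain proteins that read their marks were described here in chondrocytes of the growth plate. Slow-cycling cells, which retained a nuclear label, were compared with cells that had kept less of it. The genes were chosen by symbol alone: the lysine demethylases (*Kdm1* to *Kdm8*), the histone deacetylases (*Hdac*), the sirtuins (*Sirt1* to *Sirt7*), the DNA methyltransferases (*Dnmt1* and *Dnmt3*), the TET dioxygenases (*Tet1* to *Tet3*), *Ezh1* and *Ezh2*, the *Cbx* chromodomain genes of the Polycomb and HP1 types, and the *Setd* and *Setdb* methyltransferases. This rule found 60 of the 23159 genes in the count table, in 12 classes once the deacetylases and the chromodomain genes were divided by type. Of the 60, 56 passed the filter on low counts and were tested. None of the 56 was called by edgeR at an adjusted p below 0.05, where 1.28% of all 13728 genes tested were called. *Dnmt1* had the smallest adjusted p of the 56 (adjusted p = 0.0612).

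RNA was sequenced from Col2-Q mice at P49, which were homozygous for 4 alleles, Col2a1-tTA (written in the labels at *Peli2*), TRE-H2B-GFP (at *Col1a1*), Col2a1-creER and R26R-tdTomato. All of the mice received doxycycline from P21 to P49, which stops transcription of the H2B-GFP label, and tamoxifen at P46 and P47, so that the control cells carried the same alleles and agents as the cells compared with them. Label-retaining chondrocytes (LRCs) were the H2B-GFP high, tdTomato+ cells of the CD45-negative fraction (about 10000 cells per library), and non-LRCs were the H2B-GFP mid to low, tdTomato+ cells (about 50000 per library). Each of 3 independent experiments, with cells pooled from several littermates, gave 1 library of LRCs and 1 of non-LRCs. Both the label and the tdTomato reporter are driven through *Col2a1* promoters. The paper also saw a low level of the label in osteoblasts and osteocytes of mice that lacked Col2a1-tTA. It added the tdTomato reporter for this reason, to mark growth plate chondrocytes.

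Total counts were between 18943789 and 129559872 per library, and the shallowest was that of LRCs in experiment 2, with 1731 of the tested genes at 0 counts against 4 to 365 in the other 5 libraries. A total of 3 counts, the floor used here, was worth 0.0257 to 0.143 CPM (counts scaled by library size), for counting error only. Chondrocyte markers (8 genes, among them *Col2a1*, *Acan* and *Sox9*) summed to between 79984 and 231510 CPM, while endothelial markers summed to 1.26 to 5.45 CPM and leukocyte and erythroid markers to 3.51 to 8.26 CPM. The list of S and G2/M phase genes summed to 468, 570 and 1006 CPM in LRCs and to 748, 677 and 1269 CPM in non-LRCs, and was lower in LRCs in each experiment. Superficial articular and synovial markers (8 genes, among them *Prg4*, *Cilp* and *Clu*, 4 of them called higher in LRCs) summed to 3113, 1507 and 3036 CPM in LRCs and 227, 209 and 153 CPM in non-LRCs. By in situ hybridization, the paper also found *Prg4* RNA in resting chondrocytes, much more weakly than at the joint surface. The paper further reports that nearly every tdTomato+ cell released by its digestion came from growth plate cartilage. That share was given for all tdTomato+ cells and not for LRCs alone. The sum of skeletal muscle markers (10 genes, 6 of them under 1 CPM in every library) was lower in LRCs in each experiment. It was 12.6, 23.4 and 20.3 CPM against 23.8, 29.0 and 43.0 CPM, mostly from *Tnni2* and *Tnnt3*. None of the 4 muscle genes tested was called. Osteoblast markers summed to 447, 250 and 550 CPM in LRCs against 447, 462 and 942 CPM, with 6 of 8 below 0 on the log2 fold scale and *Col1a1* called higher, and 7 of the 8 chondrocyte markers were below 0 with none called. These lists moved with the groups to different extents, and their part in the values below was not tested.

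DNA is wound around histones, and the tails of histones carry acetyl and methyl groups that are added and removed by enzymes and bound by reader proteins. Methylation of H3K27 by EZH1 or EZH2, the catalytic subunits of Polycomb repressive complex 2 (PRC2), is read by Polycomb chromodomain proteins of the complex PRC1, and methylation of H3K9 is read by heterochromatin protein 1 (HP1) chromodomain proteins. DNA methyltransferases place methyl groups on cytosine and TET dioxygenases oxidize them. In cartilage, HDAC4 is known as a brake on chondrocyte hypertrophy, acting on MEF2 and RUNX2 transcription factors.

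Proximal promoters were compared first for what the genes share that the rule did not use. RefSeq promoters (GRCm38.p6) were matched for 50 of the 60 genes, and the first start site listed was taken for the 14 genes with several. In the 250 bases before the start, the median number of CpG sites was 17, against 16 over 10669 promoters of genes tested. A GC box (GGGCGG, or CCGCCC on the other strand) stood in 29 of the 50 promoters (58%), against 58.97% of promoters of genes tested. E2F motifs (TTTCGCGC or TTTGGCGC, either strand) stood in 1 promoter (2%) against 1.275%. The cAMP response element (TGACGTCA) also stood in 1 promoter (2%), against 2.737%. The CpG median and the share with a GC box were close to those of all genes tested, while 1 promoter is too few to compare the other motifs. The 50 include *Dnmt3l*, *Kdm4d* and *Kdm5d*, which were not tested. The upstream sequences of *Hdac4* (chr1:92180342-92180591, minus strand), *Kdm1a* (chr4:136602724-136602973, minus strand) and *Hdac2* (chr10:36974294-36974543, plus strand) are shown because they stand, respectively, for a gene with an even difference between the groups, the gene with the highest length-scaled level and the class I deacetylase with the smallest p. Capitals mark the GC boxes, of which there are 4, 0 and 1 (the only motif of the 3 found in them), and CpG sites number 23, 21 and 27. The *Hdac4* sequence precedes a start inside the gene as placed below (chr1:91928779-92195699), not its outermost start.
Hdac4: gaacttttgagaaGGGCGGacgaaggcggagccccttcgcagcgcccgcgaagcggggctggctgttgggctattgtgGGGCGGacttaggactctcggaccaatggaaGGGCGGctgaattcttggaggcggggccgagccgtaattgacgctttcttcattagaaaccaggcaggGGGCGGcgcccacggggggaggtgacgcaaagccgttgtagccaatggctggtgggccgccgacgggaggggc
Kdm1a: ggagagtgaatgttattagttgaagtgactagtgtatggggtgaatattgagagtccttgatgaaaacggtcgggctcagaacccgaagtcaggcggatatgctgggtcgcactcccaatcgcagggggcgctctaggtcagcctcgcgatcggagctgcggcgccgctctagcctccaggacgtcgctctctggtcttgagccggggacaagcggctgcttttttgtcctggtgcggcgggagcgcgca
Hdac2: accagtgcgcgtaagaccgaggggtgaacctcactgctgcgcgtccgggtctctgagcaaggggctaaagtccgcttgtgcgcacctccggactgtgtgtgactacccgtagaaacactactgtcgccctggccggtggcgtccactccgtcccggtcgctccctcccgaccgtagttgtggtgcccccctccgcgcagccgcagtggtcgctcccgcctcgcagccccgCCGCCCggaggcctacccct

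The 56 genes were first compared as a whole between LRCs and non-LRCs. On the log2 scale, the median fold change (LRCs over non-LRCs) was 0.26, with 38 genes above 0 and 18 below, whereas the median of all genes tested was −0.10, with 6038 above 0 and 7690 below. In experiments 1, 2 and 3 the median difference in log2 CPM of the 56 genes was 0.22, 0.10 and 0.25, against −0.01, −0.16 and −0.01 for all genes. A total of 18 genes were higher in LRCs in all 3 experiments (32.1%, where all genes gave 20.4%), 7 were lower in all 3 (12.5%, where all genes gave 26.0%), and 31 went both ways. All 3 LRC libraries lay above all 3 non-LRC libraries for 8 genes (14.3%, against 8.41% of all genes), and below them for 1 gene (1.79%, against 10.3%). In sorted bulk RNA, fewer cells with a transcript and less transcript per cell cannot be told apart.

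At an unadjusted p below 0.05 in edgeR, 6 genes were higher in LRCs (*Cbx6*, *Dnmt1*, *Hdac4*, *Kdm3a*, *Kdm1a* and *Ezh1*, 10.7%), where 8.89% of all genes were, and 3 were lower (*Cbx3*, *Hdac2* and *Setd5*, 5.36%), where 9.53% were. The share of higher genes was therefore near the background. DESeq2 with the experiment as a block, the test nearest to the study's own, called 5 of the 56 higher (*Cbx6*, *Dnmt1*, *Hdac4*, *Kdm1a* and *Kdm3a*) and 2 lower (*Cbx3* and *Hdac2*) at an adjusted p below 0.05, where it called 6.16% of the genes with an adjusted p higher and 6.15% lower.

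**Figure D1:**
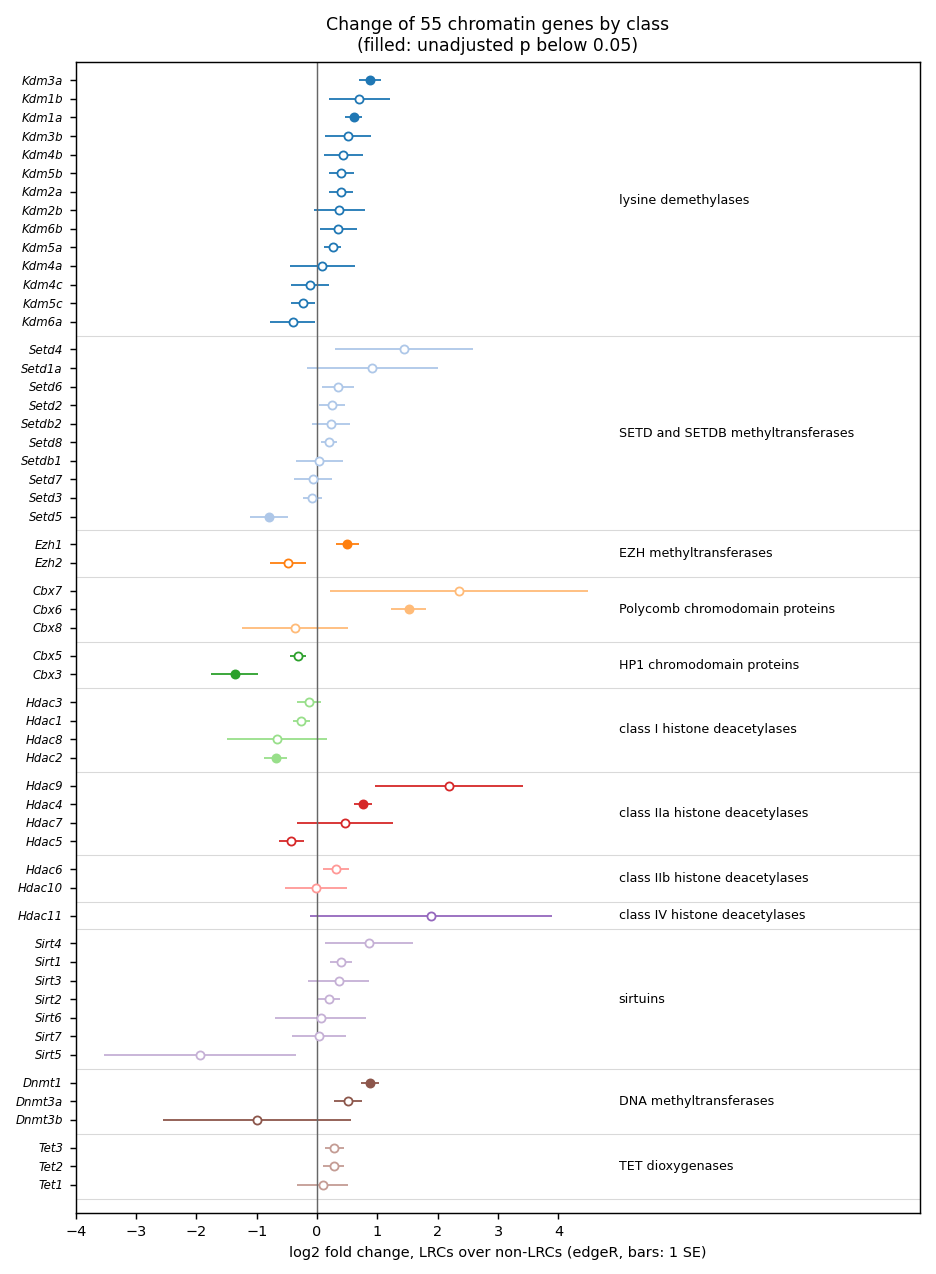
Fitted log2 fold change (LRCs over non-LRCs, horizontal axis) of 55 of the 56 genes tested, one row per gene and grouped by class; points are edgeR estimates, bars are 1 standard error, and filled points have an unadjusted p below 0.05. Lysine demethylases lie mostly to the right of 0, class I deacetylases and HP1 proteins to the left, and genes with few counts such as *Cbx7*, *Hdac11* and *Sirt5* have the widest bars.

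Transcript length differed between these genes and the rest. The longest annotated transcript had a median of 4920 bases in the 56 genes and 3387 bases over all genes tested, and 29 of the 56 fell in the longest of 4 length bins with equal numbers of genes. From the shortest to the longest bin, the median log2 fold change of all genes went from −0.31 through −0.12 and −0.03 to 0.07. The chromatin genes had medians of 0.20 (5 genes), 0.01 (14 genes), −0.02 (8 genes) and 0.35 (29 genes) in these bins. After correction for GC content and length in the same fit, their median log2 fold change was 0.11, against −0.08 for all genes. Across 13566 genes, which are not independent replicates and share the same 6 libraries, Pearson's r between log2 length and log2 fold change was 0.128.

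**Figure D2:**
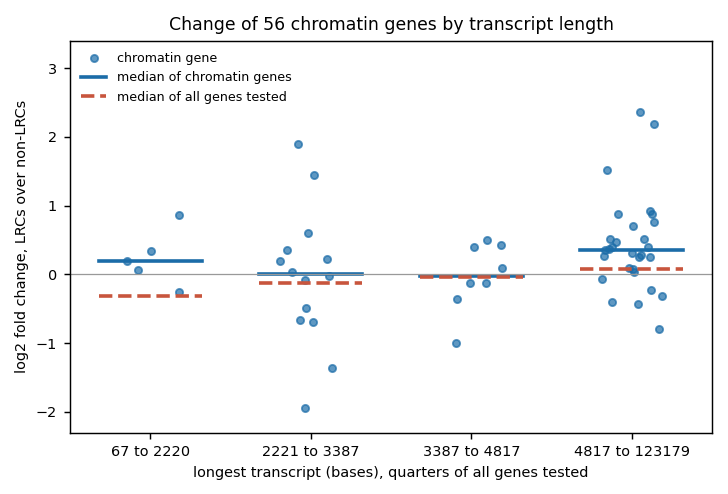
Fitted log2 fold change of the 56 genes (points, spread sideways only to separate them) in 4 equal bins of all tested genes by longest transcript in bases; solid lines are medians of the chromatin genes and dashed lines medians of all genes tested. The dashed line goes from −0.31 to 0.07 and the solid line is highest, at 0.35, in the longest bin.

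Among the lysine demethylases, 11 of the 14 tested had a positive log2 fold change and 3 a negative one, with a median of 0.38, and 5 were higher in LRCs in all 3 experiments while none was lower in all 3. With the correction for GC content and length, 9 were positive and 5 negative with a median of 0.16, and without experiment 3 the median was 0.23. *Kdm1a* (chr4:136550540-136602723, minus strand) encodes LSD1, which demethylates H3K4 within CoREST complexes. In experiments 1, 2 and 3, in this order throughout, its level was 258, 218 and 217 CPM in LRCs and 148, 162 and 144 CPM in non-LRCs. The groups did not overlap, with means of 231 ± 23.4 against 151 ± 9.34 CPM (± s.d., *n*=3). The fold was 1.52 (log2 0.61 ± 0.14 SE, unadjusted p = 0.00573, adjusted p = 0.108 in edgeR).

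*Kdm3a* (chr6:71588972-71632990, minus strand), whose product removes H3K9 mono- and dimethylation, was measured at 125, 81.9 and 103 CPM in LRCs and at 56.4, 42.2 and 72.3 CPM in non-LRCs. All LRC libraries lay above all non-LRC libraries, and the fold was 1.83 (log2 0.87 ± 0.18 SE, adjusted p = 0.0814). The lowest of the class was *Kdm6a*, an X-linked demethylase of H3K27, with 79.1, 17.5 and 60.0 CPM in LRCs and 63.5, 50.8 and 62.7 CPM in non-LRCs. The differences in log2 CPM were 0.32, −1.54 and −0.06, so that the lower value lay mostly in experiment 2, which holds the shallowest library, and the fitted value was −0.41 ± 0.37 (adjusted p = 0.612). Without experiment 2 it was 0.13.

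The other H3K27 demethylase, *Kdm6b*, had a log2 fold change of 0.35, with 17.9, 52.9 and 17.5 CPM in LRCs and 24.1, 33.9 and 9.70 CPM in non-LRCs, and the groups overlapped. Of the H3K4 trimethyl demethylases, *Kdm5a* lay higher in every LRC library (143, 115 and 122 CPM against 105, 103 and 108 CPM) by a log2 fold change of 0.26 ± 0.14, *Kdm5b* had 0.40 and the X-linked *Kdm5c* −0.23. *Kdm2a* and *Kdm2b*, demethylases of H3K36, had 0.40 and 0.37. The *Kdm4* genes, which act on H3K9 and H3K36, had 0.09 (*Kdm4a*), 0.43 (*Kdm4b*) and −0.12 (*Kdm4c*), and *Kdm3b* and *Kdm1b*, the paralogs of the genes above, had 0.51 and 0.70. Unadjusted p was above 0.05 for each of these 11 genes and for *Kdm6a*. Exons of *Kdm1b* overlap those of *Dek* on the opposite strand, and the strand setting of the counting is not given in the sources used here.

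The remaining demethylase genes were not tested. *Kdm4d* had 11, 12 and 22 counts in LRCs against 0, 0 and 2 counts in non-LRCs. The Y-linked *Kdm5d* had 0 counts in all 6, which in the shallowest library allows up to 0.143 CPM. The Y-linked *Eif2s3y* also had 0 counts throughout, *Uty* had at most 15 counts and *Ddx3y* 3 counts in 1 library, while *Xist* lay between 53.2 and 248 CPM. The labels do not give the sex of the mice.

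The 10 *Setd* and *Setdb* genes, which encode SET domain lysine methyltransferases and relatives, had a median log2 fold change of 0.21, with 7 positive. The median was 0.10 without experiment 2, and 0.13 with 6 positive without experiment 3. *Setd5* (chr6:113077365-113153435, plus strand), whose product is found with HDAC3 and NCoR, stood apart with 43.1, 32.1 and 42.3 CPM in LRCs and 92.2, 84.0 and 39.3 CPM in non-LRCs. It was lower in LRCs in experiments 1 and 2 and level in experiment 3, with differences in log2 CPM of −1.10, −1.39 and 0.11. The fitted value was −0.80 ± 0.31 (unadjusted p = 0.0427, adjusted p = 0.254). Without experiment 3 it was −1.22, and this was the only setting in which *Setd5* was called (adjusted p = 0.0448, range over the alternatives 0.0448 to 0.608).

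The highest value in the class belonged to *Setd4*, at 2.55, 5.69 and 1.84 CPM in LRCs and 1.68, 0.262 and 1.89 CPM in non-LRCs, or 1.44 ± 1.14 (adjusted p = 0.558). That difference lay mostly in experiment 2. *Setd8*, which monomethylates H4K20, had the highest length-scaled level of the class, and was slightly higher in LRCs in every experiment, at 148, 175 and 134 CPM against 130, 147 and 119 CPM (log2 0.20 ± 0.13). *Setd6* was also higher in every LRC library, by 0.34 ± 0.27. *Setd2*, whose product trimethylates H3K36, had 0.25, *Setdb1* and *Setdb2*, of the H3K9 methyltransferase family, 0.04 and 0.23, *Setd1a*, an H3K4 methyltransferase, 0.92 with a standard error of 1.08, *Setd7* −0.07 and *Setd3*, which methylates actin, −0.08. None of these had an unadjusted p below 0.05.

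The 2 EZH genes differed in opposite directions in every experiment. *Ezh1* (chr11:101191115-101226463, minus strand), the PRC2 enzyme common in non-dividing cells, gave 56.6, 33.2 and 36.5 CPM in LRCs and 32.2, 27.4 and 27.3 CPM in non-LRCs, without overlap. Its log2 fold change was 0.50 ± 0.20 (unadjusted p = 0.0429, adjusted p = 0.255), and 0.34 without experiment 1. *Ezh2*, which is known to be tied to proliferation, gave 7.06, 10.2 and 11.8 CPM in LRCs and 13.3, 11.7 and 15.0 CPM in non-LRCs. The LRC library was the lower one in each experiment, but the groups overlapped, and the value was −0.49 ± 0.30 (adjusted p = 0.442). Scaled to transcript length, *Ezh1* exceeded *Ezh2* by a ratio of 5.31, 2.15 and 2.05 in LRCs and of 1.61, 1.55 and 1.21 in non-LRCs. This ratio was formed after the values were seen and has no test.

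Polycomb chromodomain genes were low in these cells, with means of 0.0892 to 1.56 CPM per kilobase of transcript for the 4 tested. *Cbx6* (chr15:79823896-79834688, minus strand) was the most abundant of them per length and had 16.7, 24.9 and 13.4 CPM in LRCs and 5.77, 6.96 and 5.88 CPM in non-LRCs. Every LRC library lay above every non-LRC library, at 18.3 ± 5.96 against 6.20 ± 0.662 CPM (means ± s.d., *n*=3), a fold of 2.87 (log2 1.52 ± 0.29 SE, unadjusted p = 0.00192, adjusted p = 0.0726). Exons of *Cbx6* are shared with *Npcd* on the same strand, so that reads of these 2 genes may have been split or dropped.

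*Cbx7* had the highest fitted value of all 56 genes, 2.36 ± 2.14, on 0.728, 0.191 and 1.61 CPM in LRCs and 0, 0.314 and 0.402 CPM in non-LRCs. Experiment 2 went the other way, and the adjusted p was 0.613. *Cbx8* had 0.428, 2.06 and 0.721 CPM against 0.910, 1.81 and 0.825 CPM (log2 −0.36 ± 0.88, adjusted p = 0.860). *Cbx2* was not tested, with 0 counts in every LRC library against 0, 0 and 5 counts in non-LRCs.

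Both HP1 genes of the set were lower in LRCs in all 3 experiments, and so was *Cbx1*, the HP1 gene outside the symbol rule. *Cbx3* (chr6:51470360-51483704, plus strand) gave 7.15, 21.1 and 6.91 CPM in LRCs and 38.6, 37.3 and 12.6 CPM in non-LRCs. The LRC library of experiment 2 lay above the non-LRC library of experiment 3, so that the groups overlapped although each pair had the same order. Non-LRCs had 2.58 times the LRC level (log2 −1.37 ± 0.39 SE, unadjusted p = 0.0121, adjusted p = 0.145). Without experiment 1 the log2 value was −0.85. The annotation names 8 pseudogenes of *Cbx3*, which makes its counts uncertain where reads match several copies.

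*Cbx5*, which encodes HP1 alpha, had 125, 69.7 and 108 CPM in LRCs and 151, 87.5 and 139 CPM in non-LRCs. The differences in log2 CPM were close to each other, at −0.26, −0.33 and −0.36, and the fitted value was −0.32 ± 0.13 (unadjusted p = 0.0563, adjusted p = 0.284). *Cbx1* had 7.25, 14.1 and 11.7 CPM against 9.08, 25.5 and 15.6 CPM, or −0.53 ± 0.27 (adjusted p = 0.355).

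All 4 class I histone deacetylases had a negative log2 fold change, with a median of −0.46. Without experiment 2, *Hdac3* and *Hdac8* turned positive and the median was −0.13, and it was −0.16 under limma-voom and −0.26 with the correction for GC content and length. Of these zinc-dependent enzymes, HDAC1, HDAC2 and HDAC3 are catalytic subunits of the Sin3, NuRD, CoREST and NCoR corepressor complexes. *Hdac2* (chr10:36974544-37001889, plus strand) gave 58.0, 47.7 and 77.1 CPM in LRCs and 76.3, 105 and 111 CPM in non-LRCs. The LRC library was lower in each pair, and the groups overlapped only between the LRC library of experiment 3 and the non-LRC library of experiment 1. Its level in non-LRCs was 1.61 times that in LRCs (log2 −0.69 ± 0.19 SE, unadjusted p = 0.0122, adjusted p = 0.145).

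*Hdac1*, the close paralog of *Hdac2*, was lower in LRCs in each experiment by less, with differences in log2 CPM of −0.23, −0.16 and −0.38 and a fitted value of −0.26 ± 0.14. Per kilobase of transcript, *Hdac1* exceeded *Hdac2* by a ratio of 1.93, 2.77 and 2.17 in LRCs and 1.72, 1.41 and 1.95 in non-LRCs (a ratio formed after the values were seen). *Hdac3*, the NCoR subunit, had the value nearest to 0 of the class, with 61.0, 48.2 and 54.7 CPM against 50.4, 67.8 and 61.7 CPM (log2 −0.13 ± 0.20, adjusted p = 0.767). It went both ways between experiments, and the value was 0.051 without experiment 2. The X-linked *Hdac8* had a log2 fold change of −0.66 ± 0.83, with 0.669 CPM in the LRC library of experiment 2.

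Class IIa deacetylases bind MEF2 factors and shuttle between nucleus and cytoplasm. *Hdac4* (chr1:91928779-92195699, minus strand) was even within groups, at 72.6, 69.4 and 69.9 CPM in LRCs and 44.1, 39.4 and 41.9 CPM in non-LRCs. Means were 70.6 ± 1.75 against 41.8 ± 2.33 CPM (± s.d., *n*=3), with a fold of 1.69 (log2 0.76 ± 0.15 SE, unadjusted p = 0.00248, adjusted p = 0.0808). The difference in log2 CPM was 0.72, 0.81 and 0.74 in the 3 experiments. With the correction for GC content and length the log2 value was 0.46.

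The other genes of class IIa did not share this evenness. *Hdac9* had the highest fitted value of the class, 2.19 ± 1.22 (adjusted p = 0.419), on 2.22, 0 and 3.00 CPM in LRCs and 0.765, 0 and 0.382 CPM in non-LRCs, so that both libraries of experiment 2 were at 0. *Hdac5* was lower in LRCs in all 3 experiments, at 52.3, 10.4 and 24.0 CPM against 54.3, 16.5 and 35.5 CPM (log2 −0.43 ± 0.21, adjusted p = 0.353), and its value was −0.83 with the correction for GC content and length. *Hdac7* had 0.47 ± 0.79.

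Class IIb holds *Hdac6*, a cytoplasmic tubulin deacetylase, and *Hdac10*, a polyamine deacetylase. *Hdac6* had 34.6, 24.5 and 30.0 CPM in LRCs and 32.4, 15.4 and 26.1 CPM in non-LRCs, higher in LRCs in each pair with overlapping groups (log2 0.32 ± 0.21, adjusted p = 0.483), and its value was 0.11 with the correction for GC content and length and 0.15 without experiment 2. *Hdac10* had 9.21, 2.10 and 8.45 CPM against 4.41, 4.19 and 9.36 CPM, with a value of −0.02 ± 0.51 (adjusted p = 0.990). The only class IV gene, *Hdac11*, had 0.694, 4.45 and 0.815 CPM against 0.687, 0 and 0.503 CPM. The groups lay apart only narrowly in experiment 1, and the fitted value of 1.89 ± 2.01 (adjusted p = 0.668) rested on experiment 2, without which it was 0.35.

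Sirtuins are deacylases that use NAD+ as a cosubstrate. Their median log2 fold change was 0.20, with 6 of 7 positive and no unadjusted p below 0.05, but 4 of 7 were positive without experiment 2 or without experiment 3, and the median was 0.36 without experiment 1. *Sirt1*, a nuclear deacetylase, was higher in LRCs in each experiment, with differences in log2 CPM of 0.46, 0.24 and 0.48 (fitted 0.39 ± 0.18, unadjusted p = 0.0767 in edgeR). *Sirt2*, mostly cytoplasmic and the most abundant per length, had 0.20, and the nuclear *Sirt6* and *Sirt7* had 0.06 and 0.03.

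The mitochondrial sirtuins included both ends of the class. *Sirt4* had 1.46, 4.30 and 2.33 CPM in LRCs and 0.407, 2.70 and 2.17 CPM in non-LRCs, higher in LRCs in each pair (log2 0.86 ± 0.72, adjusted p = 0.583). *Sirt5* had 1.07, 0 and 1.47 CPM against 1.50, 2.83 and 2.45 CPM, and was the 1 gene of the 56 with every LRC library below every non-LRC library (log2 −1.94 ± 1.59, adjusted p = 0.574). That value rested on the 0 in the shallowest library, since it was −0.61 without experiment 2, and it was −3.46 without experiment 1. *Sirt3*, whose exons overlap those of *Psmd13* and *Ric8a* on the other strand, had 0.36.

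Of the DNA methyltransferases, *Dnmt1* (chr9:20907209-20959888, minus strand), which copies methylation onto newly made DNA, was nearest to the threshold. It gave 98.2, 40.5 and 96.6 CPM in LRCs and 50.0, 21.6 and 57.6 CPM in non-LRCs. Experiment 2 was lowest in both groups, so that the groups overlapped, but the difference in log2 CPM was 0.97, 0.91 and 0.75 in the 3 pairs. The fold was 1.84 (log2 0.88 ± 0.15 SE, unadjusted p = 0.00123, adjusted p = 0.0612), and the log2 value was 0.57 with the correction for GC content and length.

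In the S and G2/M phase list, 21 of 24 genes had a negative log2 fold change, with a median of −0.59 and none called by edgeR. The 3 positive genes were *Mcm2* (0.25), *Mcm3* (0.32) and *Mcm7* (0.32). Whether the difference of *Dnmt1* is related to cycling was not tested. *Uhrf1*, the hemimethylated DNA reader that brings DNMT1 to replicated DNA, had a log2 fold change of −0.16. Per kilobase, *Dnmt1* exceeded *Uhrf1* by a ratio of 3.73, 4.98 and 2.55 in LRCs and 1.72, 2.04 and 1.57 in non-LRCs, and the ratio, chosen after the values were seen, did not overlap between the groups.

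The de novo methyltransferases were less clear. *Dnmt3a* had 73.9, 22.1 and 55.7 CPM in LRCs and 38.1, 22.3 and 37.4 CPM in non-LRCs, higher in LRCs in experiments 1 and 3 and level in experiment 2 (log2 0.51 ± 0.23, unadjusted p = 0.0702 in edgeR). *Dnmt3b* had 3.66, 0 and 2.26 CPM against 2.69, 1.70 and 1.93 CPM, and its fitted value of −0.99 ± 1.56 (adjusted p = 0.776) rested on the 0 in the shallowest library, since it was 0.34 without experiment 2. *Dnmt3l*, a cofactor without catalytic activity, was not tested, with 0 counts in every LRC library against 45, 0 and 6 counts in non-LRCs.

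TET dioxygenases oxidize methylcytosine. All 3 had a positive log2 fold change, none with an unadjusted p below 0.05, and that of *Tet1* turned negative under limma-voom, with thinned libraries and without experiment 2. *Tet3* gave 68.6, 52.1 and 35.8 CPM in LRCs and 60.8, 39.1 and 29.5 CPM in non-LRCs (log2 0.29 ± 0.16, adjusted p = 0.410), and *Tet2* was higher in each pair by 0.23, 0.18 and 0.42 on the log2 CPM scale. With the correction for GC content and length, *Tet3* was at −0.013. *Tet1* was the lowest, at 7.16, 11.7 and 6.10 CPM against 10.3, 5.94 and 6.76 CPM (log2 0.09 ± 0.42, adjusted p = 0.929), higher in LRCs in experiment 2 and lower in the other two.

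**Figure D3:**
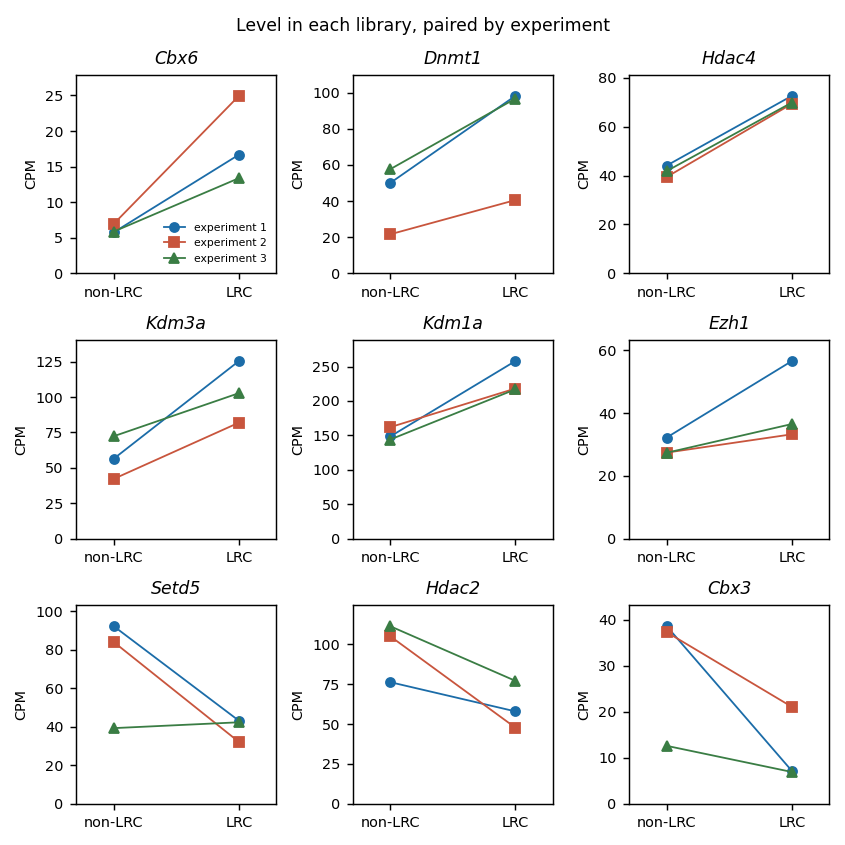
CPM (TMM-normalized, linear axes starting at 0) of the 9 genes with an unadjusted p below 0.05, with non-LRC and LRC libraries joined by experiment. Lines of *Hdac4* nearly coincide, those of *Dnmt1* run in parallel from different levels, and *Setd5* is lower in LRCs in experiments 1 and 2 but not in experiment 3.

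Levels between genes were compared only as CPM per kilobase of the longest transcript. *Kdm1a* had the highest mean over the 6 libraries (63.2), followed by *Setd8* (51.9), *Hdac1* (46.6) and *Hdac2* (24.4). *Hdac1* and *Setd8* were close to level in non-LRCs, at 51.0 and 48.3, and *Kdm1a* was at 50.0 there and at 76.3 in LRCs. Within classes, *Ezh1* (8.45) stood above *Ezh2* (4.13), *Dnmt1* (10.4) above *Dnmt3a* (4.29) and *Dnmt3b* (0.472), and *Hdac4* (6.94) and *Hdac5* (5.95) above *Hdac7* (0.626) and *Hdac9* (0.134). The order of *Hdac4* and *Hdac5* turned between the groups, at 8.72 and 5.35 in LRCs against 5.16 and 6.55 in non-LRCs. *Tet2* (4.66) and *Tet3* (4.37) were nearly level and *Tet1* (0.557) lower. The order of neighbouring genes was not tested.

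**Figure D4:**
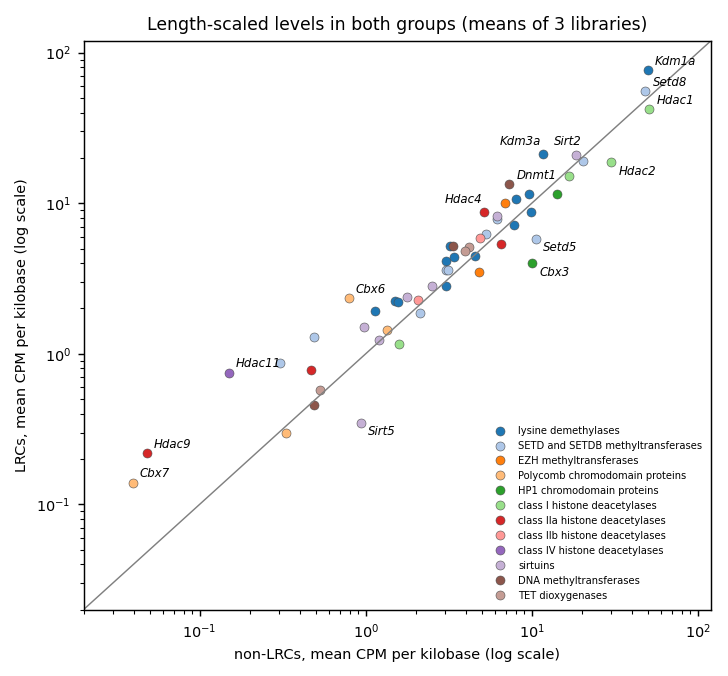
Mean CPM per kilobase of longest transcript (3 libraries per group, log scales) in non-LRCs (horizontal axis) and LRCs (vertical axis) for the 56 genes tested, coloured by class, with the line of equal level. *Kdm1a*, *Kdm3a*, *Dnmt1* and *Hdac4* lie above the line, *Hdac2*, *Setd5* and *Cbx3* below it, and the 3 genes farthest from it (*Hdac11*, *Hdac9* and *Cbx7*) have low levels in both groups. *Cbx6* comes next in distance, above the line.

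The partners of these enzymes were read from lists of 89 genes in complexes or pathways around them, all of which were found and tested. None was called by edgeR (smallest adjusted p = 0.0700), 11 were higher in LRCs (12.4%, against 8.89% of all genes) and 2 lower (2.25%, against 9.53%) at an unadjusted p below 0.05, and the median log2 fold change was 0.03. DESeq2 called 6 of the 89 higher and 2 lower, where it called 6.16% and 6.15% of all genes, so that the higher calls were near the background. Of the 89, 25 were higher in LRCs in all 3 experiments (28.1%) and 12 lower (13.5%), against the 20.4% and 26.0% of all genes given above.

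In PRC1 (13 genes) the highest value was that of *Bmi1*, the RING finger partner of the CBX proteins, with 37.5, 35.5 and 47.9 CPM in LRCs and 16.7, 21.9 and 31.3 CPM in non-LRCs (log2 0.82 ± 0.21, adjusted p = 0.117), without overlap. The lowest was *Pcgf1*, a subunit of variant PRC1, at −0.81 ± 0.47. In PRC2 (9 genes) *Phf1*, an accessory subunit, had 19.1, 28.5 and 14.4 CPM in LRCs and 11.4, 12.7 and 8.39 CPM in non-LRCs (0.89 ± 0.25, adjusted p = 0.141), also without overlap. *Phf19*, its paralog, had −1.30 ± 1.83, and the core subunits *Eed* and *Suz12* had −0.11 and −0.0040.

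Among 20 other lysine methyltransferases the values ranged from −0.47 for *Suv420h2*, an H4K20 methyltransferase, to 1.01 ± 0.39 for *Suv39h1*, an H3K9 methyltransferase (adjusted p = 0.244). The 13 histone acetyltransferases and their scaffold subunits ranged from −0.14 for *Hat1* to 0.96 ± 0.23 for *Brpf1* (adjusted p = 0.107). Of 21 corepressor subunits, *Mta2* of NuRD was highest, at 0.65 ± 0.21 (adjusted p = 0.180), and *Rcor2*, a CoREST subunit, lowest, at −2.29 ± 1.45 (adjusted p = 0.458) with 0 counts in the LRC library of experiment 2.

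The smallest adjusted p of the partner genes belonged to *Idh2*, a mitochondrial enzyme that makes 2-oxoglutarate, the cosubstrate of TET and most KDM enzymes. *Idh2* gave 32.4, 21.4 and 49.0 CPM in LRCs and 58.3, 58.6 and 88.0 CPM in non-LRCs, so that every LRC library lay below every non-LRC library (log2 −1.04 ± 0.20, adjusted p = 0.0700). *Idh1*, the cytosolic enzyme, showed the same order, with 29.8, 16.0 and 33.0 CPM against 34.9, 40.1 and 59.3 CPM (−0.80 ± 0.26, adjusted p = 0.183), and was named after its values were seen. The highest of these 12 genes was *Ogt*, a partner of TET proteins, at 0.41 ± 0.13 (adjusted p = 0.192).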

How the data were processed

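RNA was measured in 6 libraries, 3 of LRCs and 3 of non-LRCs. Reads were aligned by the authors to mm10 (GRCm38) with TopHat2 2.0.13 and Bowtie2 2.2.1, and non-ambiguous reads were counted per gene with HTSeq; the annotation and strand setting are not given in the sources used here. The kit and sequencer are named differently in the labels and the methods. The authors deposited raw counts for 23159 genes, used here. Deposited size-factor-normalized and rlog tables were not used.

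Tests were run on the counts with edgeR 4.0.16 in R 4.3.3: filterByExpr (minimum count 10, minimum total 15), TMM normalization, a block for the experiment as in the study's paired design, the quasi-likelihood test (prior count 0.125) and Benjamini-Hochberg adjustment over 13728 genes. Calls had an adjusted p below 0.05. Standard errors (SE) were computed from the fitted log2 fold change and the F statistic of the quasi-likelihood test, so they are approximate. CPM were scaled by TMM, with a prior count of 2 on the log2 scale. The pairing was checked by how libraries of 1 experiment deviated together from their group means across genes (Pearson's r of 0.197, 0.288 and 0.336 for experiments 1 to 3). Cells of each experiment were pooled, so that p-values of the fits with the block measure how the LRC to non-LRC difference varied between 3 pairs of pools. The edgeR fit was also run on simulated data, with changes larger than most of those given here. Its power for smaller changes or for genes of low level was not measured.

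Genes were matched to GENCODE vM21 for length, GC content and position (59 by current symbol, *Setd8* by an older symbol). Values per library with a test are given for genes with an unadjusted p below 0.05, genes called by DESeq2 1.42.0 and the highest and lowest of each class, 26 in all. The values of 1 of the 60 genes are not reported here on their own. The genes and lists were chosen with earlier results of these data known. Symbols of some partner genes were replaced by older ones after the count table was seen. Alternatives were no block, DESeq2 or limma-voom 3.58.1 in place of edgeR (both with the block), size factors of DESeq2, a stricter filter (10 counts in each library) or none, each experiment left out, libraries thinned to the smallest total, correction for GC content and length, and a prior count of 2.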

Additional observations from a re-analysis of the deposited data

How the results depend on the processing

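Calls depended on the tool and the filter. Higher in LRCs were 5 of the 56 genes under DESeq2, 5 with at least 10 counts in every library (11129 genes tested) and 5 under limma-voom, the same 5 (*Cbx6*, *Dnmt1*, *Hdac4*, *Kdm1a* and *Kdm3a*) in each. All genes gave more calls there too, with 12.3%, 6.75% and 9.91% called in either direction against 1.28% in edgeR with the standard filter. Lower were 2 under DESeq2 and 1 under limma-voom. At an unadjusted p below 0.05, limma-voom gave 13 higher genes and the correction for GC content and length 6 lower ones. That correction took the median log2 fold change to 0.11. Leaving out 1 experiment gave 0 to 2 calls higher (*Cbx6* and *Dnmt1* without experiment 2), 0 to 1 lower (*Setd5* without experiment 3), 5 to 15 higher and 2 to 3 lower genes at an unadjusted p below 0.05 (15 without experiment 2, whose LRC library is the shallowest), and a median of 0.23 to 0.27. The other counts of calls and of unadjusted p below 0.05 over the 56 genes stayed within 1.5 times, while counts of positive and negative values within classes moved by more, as given with each class. Without the replicate block, 0 of the 56 were called, 4 were higher and 3 lower at an unadjusted p below 0.05, and the median was 0.26. The log2 fold change turned sign for *Hdac10* without the block (0.14) and under limma-voom (0.45), for *Dnmt3b* and *Tet1* under limma-voom (0.18 and −0.15) and with thinned libraries (0.17 and −0.10), and for *Tet3* with the correction (−0.013). With 1 experiment left out it went from −0.57 to 0.46 for *Hdac10*, −2.63 to 0.34 for *Dnmt3b*, −0.34 to 0.41 for *Tet1*, −0.34 to 0.051 for *Hdac3* and −0.80 to 0.13 for *Kdm6a*, turning sign without experiment 2 in each and also without experiment 3 for *Hdac10*. The cause was not tested. Adjusted p ranged over the alternatives from 9.06e-05 to 0.597 for *Dnmt1*, from 0.000133 to 0.310 for *Cbx6* and from 0.000818 to 0.349 for *Hdac4*, the highest without the block for *Dnmt1* and *Hdac4*.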

Other observations

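Around *Hdac4*, a list of 10 genes tied to class IIa deacetylases and hypertrophy was read beside it. *Mef2c*, a hypertrophy factor that class IIa deacetylases bind, was the 1 gene of the list called by edgeR. *Mef2c* had 6.25, 5.16 and 20.5 CPM in LRCs and 29.8, 33.2 and 90.8 CPM in non-LRCs (log2 −2.35 ± 0.21, adjusted p = 0.0176 in edgeR). The LRC library of experiment 3 was the highest of its group, as was the non-LRC library of that experiment, and the groups did not overlap. *Mef2a* had 275, 84.4 and 209 CPM in LRCs and 130, 73.9 and 121 CPM in non-LRCs (log2 0.69 ± 0.20, adjusted p = 0.155 in edgeR), and *Mef2d* had −0.05. DESeq2 with the block, which called 6.16% of genes higher and 6.15% lower, also called *Mef2a* (adjusted p = 0.0177), and *Col10a1* and *Ihh* below. *Runx2* had 0.50 ± 0.20 (adjusted p = 0.268). *Sik3*, a kinase that holds class IIa deacetylases in the cytoplasm, had 0.62 ± 0.34 (adjusted p = 0.389 in edgeR). Its differences in log2 CPM were 0.05, 1.59 and 0.24, so that the value lay mostly in experiment 2. The related *Sik1* and *Sik2* had 0.07 and 0.32 and went both ways between experiments. *Ppp2ca*, a phosphatase catalytic subunit, had 0.12.

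*Col10a1*, the collagen of hypertrophic chondrocytes, had 1.93, 0.143 and 76.0 CPM in LRCs and 12.2, 15.7 and 264 CPM in non-LRCs (log2 −2.95 ± 0.69, adjusted p = 0.101 in edgeR and 0.0308 in DESeq2). Both libraries of experiment 3 stood far above the others of their group. *Ihh* showed the same order, with 0, 0 and 1.09 CPM in LRCs and 0.929, 1.13 and 8.45 CPM in non-LRCs (adjusted p = 0.150 in edgeR and 0.000414 in DESeq2). *Hdac4* did not share that step, at 69.9 and 41.9 CPM in experiment 3 against 69.4 and 72.6 CPM in the other LRC libraries and 39.4 and 44.1 CPM in the other non-LRC libraries.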
